A study of Sus scrofa with 4 samples.

Results

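Epidermal lipid barrier genes were followed in porcine pancreatic ductal organoids (PPDO) and in cells of the primary pig pancreas. The 5 genes were CERS3, ELOVL4, ALOX12B, PLA2G4E and RDH12, out of 30282 gene identifiers in the count tables, and for each of them all features of that name, including those in extended 3' ends, were summed. They had been picked with measured levels of these same libraries in view, so their levels in PPDO beside those in primary cells are given as a description without a test. PPDO 1 and PPDO 2 were cultures grown in Cultrex from ducts picked by hand, from a late postnatal and an adult German landrace pig and at a different passage each. The labels do not say which culture is which library. Primary pancreas 1 came from a wild-type pig with hand-isolated ducts as the input. Primary pancreas 2 came from an INS-eGFP pig, in which the insulin promoter drives eGFP in beta cells, and pooled live cells sorted as DBA+ (a lectin used for ductal cells), as eGFP+ and from the whole suspension. Both primary pigs were late postnatal, of the same age, and were processed on different days. No treatment beyond the culture itself is stated for any library. The paper maintained PPDO in a medium with WNT3a, R-spondin, noggin, EGF, FGF10, other additives and a supplement without vitamin A. Culture with its medium, animal and age differ together between PPDO and primary pancreas and cannot be told apart, and nothing pairs a culture with a primary pig.

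In the outermost layer of skin, stacked sheets of ceramides, cholesterol and free fatty acids hold water in. Keratinocytes make the ceramides as they leave the basal layer: ELOVL4 lengthens fatty acids to ultra-long chains, CERS3 couples them to a sphingoid base, and ABCA12 carries the lipid into granules that are released at the surface. ALOX12B and its partner ALOXE3 oxidise the linoleate held by these ceramides, and inherited loss of CERS3 or ALOX12B causes ichthyosis, a scaling disease of the skin. PLA2G4E belongs to the cytosolic phospholipases A2 and also acts as an N-acyltransferase on phosphatidylethanolamine. RDH12 reduces retinaldehyde to retinol and is best known from photoreceptors. The duct of the pancreas has no cornified layer.

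In the RefSeq annotation of Sscrofa11.1, ELOVL4 spans chr1:86163845-86196036, PLA2G4E chr1:129288727-129364034, CERS3 chr1:139027604-139154830, RDH12 chr7:91481238-91493838 and ALOX12B chr12:53292530-53302850. ALOX12B has LOC100513045 at 718 bp and ALOXE3 at 6995 bp, and PLA2G4E encloses LOC110261331. UMIs (unique molecular identifiers, each marking a captured molecule) of these 2 members could therefore include reads of a neighbour. The files give the extended features no coordinates of their own that were used here.

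After filtering, 8885 and 7337 cells of PPDO 1 and 2 were kept, with 300990260 and 262372786 UMIs, and 5671 and 4262 cells of primary pancreas 1 and 2, with 75903136 and 118216190 UMIs. The libraries shared between 10 and 23 cell barcodes per pair. The name ductal organoid was checked against 10 ductal markers found in the tables. Their summed level was 1277 and 1161 CPM (UMIs of a gene as a share of all UMIs summed, scaled so that the shares of all genes add up to the same fixed total in every sum) in PPDO 1 and 2, against 30089 and 33798 CPM in ductal-like primary cells. CFTR stood at 1.04 and 0.637 CPM and SOX9 at 3.30 and 1.44 CPM in PPDO, and KRT5, a basal keratin, at 5420 and 7634 CPM. Of the ductal markers KRT7 (389 and 384 CPM) and SLC4A4 (418 and 327 CPM) were highest in PPDO. Of the 10 ductal markers 1 was under 1 CPM in both cultures, while KRT19 and MUC1 were not matched. The epithelial gene EPCAM had 139 and 102 CPM. The summed level of the ductal markers in the cultures thus lay below that of ductal-like cells, and the cells are called PPDO cells here. Markers of stellate cells (9.19 and 9.14 CPM summed), endocrine cells (15.1 and 14.9 CPM), acinar cells (39.5 and 43.4 CPM) and endothelial cells (74.3 and 64.1 CPM) were low, and 11 of 13, 16 of 20, 9 of 13 and 9 of 12 of them were under 1 CPM in both cultures. The immune list summed to 6686 and 6606 CPM, against 12699 and 13461 CPM in immune-like primary cells. Of its markers CD74 (4811 and 4523 CPM) and CD79A (1795 and 2002 CPM) were highest, 10 of 15 were under 1 CPM in both cultures, and PTPRC, carried by leukocytes in general, stood at 0.419 and 0.210 CPM. The schwann list summed to 3737 and 3595 CPM, against 10009 and 17068 CPM in schwann-like cells, with ERBB3 alone at 3636 and 3499 CPM and 5 of 8 markers under 1 CPM. The part of these markers in the results was not tested.

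ELOVL4, CERS3, PLA2G4E and RDH12 were expressed in both cultures, and ALOX12B was close to absent. ELOVL4 had 4.78 CPM in PPDO 1 and 8.39 CPM in PPDO 2 (mean 6.59 ± 2.56, SD, n = 2). CERS3 had 5.46 and 11.3 CPM (8.37 ± 4.12), the widest gap between the cultures. PLA2G4E had 11.2 and 14.6 CPM (12.9 ± 2.37), and RDH12 5.50 and 7.50 CPM (6.50 ± 1.42). All 4 were higher in PPDO 2 than in PPDO 1. ALOX12B had 11 UMIs in PPDO 1 and 6 in PPDO 2, or 0.0365 and 0.0229 CPM, and 11 and 5 of those UMIs lay in its extended 3' end. Extended ends held between 3.41% and 17.8% of the UMIs of the other members in PPDO. UMIs counted at 3' ends do not allow a ranking of levels between genes, so each gene is compared with itself across cells.

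In ductal-like cells of the primary pancreas the members were scarce. These were 2165 cells of primary pancreas 1, mostly in clusters other than those that held the 1188 cells of primary pancreas 2. CERS3 had 3 UMIs in each library (0.0694 and 0.118 CPM), so PPDO over ductal-like cells came to 93.4 in the pooled counts (95% interval 42.9 to 254.5, counting error only). PLA2G4E had 13 and 2 UMIs (0.301 and 0.0789 CPM), a ratio of 58.4 (35.4 to 104.3), which was 162 (44.8 to 1337) without primary pancreas 1. RDH12 had 15 and 7 UMIs (0.347 and 0.276 CPM), a ratio of 20.04 (13.2 to 32.0). ELOVL4 had 32 and 58 UMIs (0.740 and 2.29 CPM), a ratio of 4.92 (3.99 to 6.14), and this ratio was 2.83 (2.18 to 3.73) without primary pancreas 1 and 8.73 (6.17 to 12.8) without primary pancreas 2. For these 4 genes the lowest PPDO library lay above the highest ductal-like sum, on the contrast that the members were picked with. The share of all genes with this order was not counted, so the order does not set the members apart. By another measure, the edgeR test with TMM factors, 22.9% of all genes tested were higher in PPDO (13.8% with library totals). ALOX12B had 4 and 2 UMIs in ductal-like cells, all in its extended 3' end, and its ratio of 0.345 (0.130 to 1.07) does not tell PPDO and ductal-like cells apart at this depth. In primary pancreas 63.6% and 68.4% of RDH12 UMIs over all cells lay in the extended end, and without extended features the mean of RDH12 in ductal-like cells dropped from 0.311 to 0.0860 CPM. In such sums, fewer cells with a transcript and fewer transcripts per cell cannot be told apart.

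**Figure D1:**
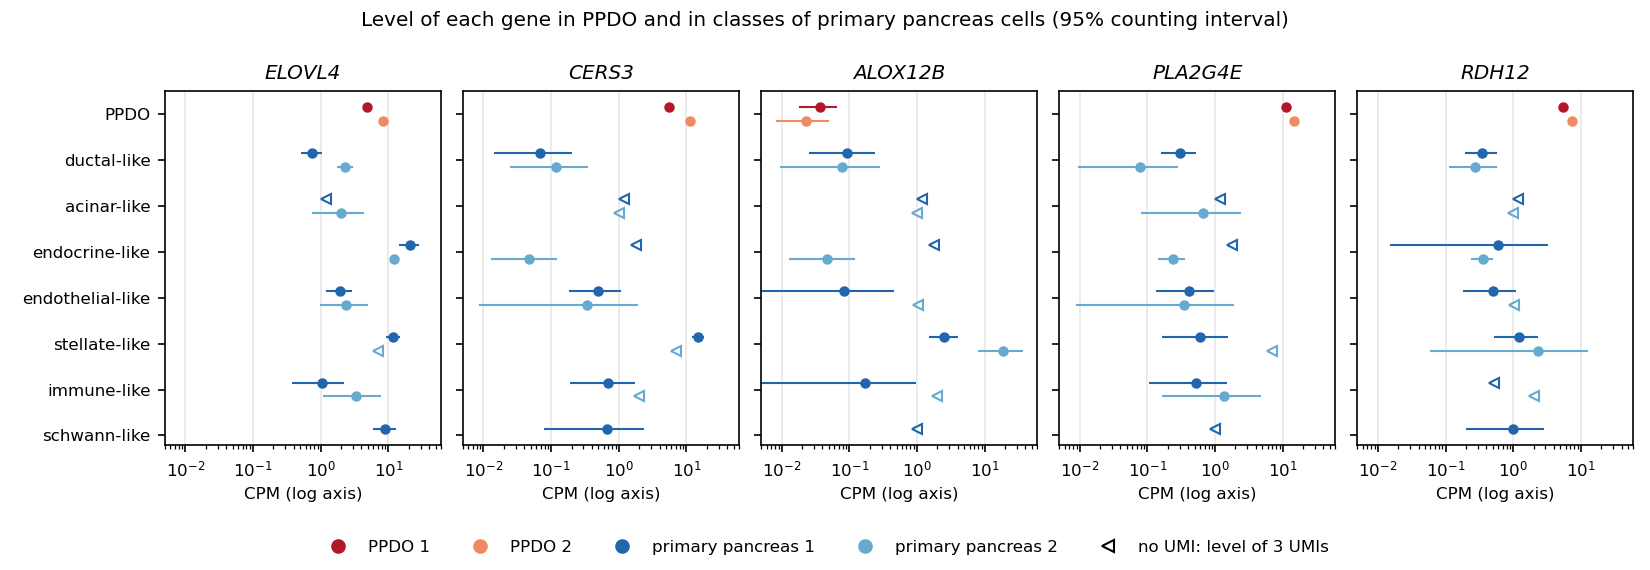
Level of each gene in CPM (log axis) in the 2 PPDO libraries and in named classes of cells of the 2 primary pancreas libraries. Points are libraries, bars 95% counting intervals, and open triangles mark classes with no UMI at the level that 3 UMIs would give. Schwann-like cells are shown for primary pancreas 1 only, since primary pancreas 2 had 1 such cell. PPDO points lie to the right of the ductal-like points for ELOVL4, CERS3, PLA2G4E and RDH12, while ELOVL4 is highest in endocrine-like cells and ALOX12B in stellate-like cells.

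The order of cell classes differed by gene. ELOVL4 was highest in endocrine-like cells, at 20.7 CPM in primary pancreas 1 (35 UMIs, 101 cells) and 11.97 CPM in primary pancreas 2 (1017 UMIs, 2203 cells), above both PPDO libraries. A UMI of ELOVL4 was seen in 23.8% and 31.4% of endocrine-like cells. For immune-like cells the shares were 0.846% and 2.88%, at unequal depths (medians of 12878 and 39457 UMIs in endocrine-like cells and 6695 UMIs in immune-like cells of primary pancreas 1). Thinned to 3000 UMIs per cell, the shares were 4.11% and 4.31% of endocrine-like and 0.477% and 0.719% of immune-like cells. Over all primary cells the ratio of PPDO to primary for ELOVL4 was 0.966 (0.906 to 1.03) in the pooled counts. Primary pancreas 1 had 2.71 CPM, below both PPDO libraries, and primary pancreas 2 had 9.25 CPM, above both. For the other members that ratio was 12.9 (10.8 to 15.5) for CERS3, 47.7 (36.3 to 63.9) for PLA2G4E, 17.6 (13.9 to 22.6) for RDH12 and 0.158 (0.0836 to 0.288) for ALOX12B. CERS3 had 1.52 CPM (115 UMIs) in primary pancreas 1 and 0.0677 CPM (8 UMIs) in primary pancreas 2, and ALOX12B 0.303 and 0.118 CPM. The intervals are for counting error only and do not cover such spread between libraries. In primary pancreas 1 ELOVL4 had 11.8 CPM in stellate-like cells (9.37 to 14.8) and 8.88 CPM in schwann-like cells (27 UMIs, 5.85 to 12.9), and the interval of the latter includes the level of PPDO 2.

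CERS3 had a single place in the primary pancreas. In primary pancreas 1, 100 of its 115 UMIs were in a cluster of 314 stellate-like cells led by DCN and LUM, genes of fibroblast matrix, in which it reached 32.3 CPM and was seen in 8.92% of cells. That level was above the mean of either PPDO library. The same cluster held 63 of the 79 stellate-like UMIs of ELOVL4, at 20.3 CPM. Primary pancreas 2 had 7 cells in this cluster and no CERS3 or ELOVL4 UMI in them, where 3 UMIs would have been 43.6 CPM, so a level of that order was not detectable there. Outside this cluster CERS3 did not pass 0.687 CPM in a named class of either library.

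ALOX12B was likewise confined among stellate-like cells to another cluster, led by ITIH4 and MYH11, a smooth muscle myosin. It had 17 UMIs in 438 of these cells of primary pancreas 1 (4.76 CPM) and 8 UMIs in 41 cells of primary pancreas 2 (21.9 CPM). These were 25 of the 37 ALOX12B UMIs of the primary libraries, although UMIs of the close neighbours cannot be told apart from its own. PLA2G4E and RDH12 stayed low, at no more than 1.34 and 2.30 CPM in any named class, and the highest of these values rested on 2 and 1 UMIs. In the cluster led by DCN and LUM of primary pancreas 1, PLA2G4E had 3 UMIs (0.968 CPM) and RDH12 5 UMIs (1.61 CPM), beside the 100 of CERS3 and 63 of ELOVL4.

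Within PPDO, transcripts of the members sat in few cells. Of PPDO 1 and PPDO 2 cells, 9.18% and 12.7% had a UMI of ELOVL4, 8.72% and 17.1% of CERS3, 8.62% and 12.02% of PLA2G4E, and 4.97% and 7.26% of RDH12. Cells with a UMI had 4.40 and 4.33 UMIs of PLA2G4E and 3.74 and 3.69 of RDH12 on average, against 1.76 and 2.37 of ELOVL4 and 2.12 and 2.35 of CERS3. Median depth was 34176 and 34459 UMIs in PPDO, above that of the primary libraries. Thinned to 3000 UMIs per cell, the shares were 1.04% and 2.11% for ELOVL4, 1.43% and 2.36% for CERS3, 2.18% and 2.92% for PLA2G4E and 0.895% and 1.79% for RDH12, and between 0% and 0.589% for these genes in ductal-like cells. ALOX12B was in 0 of 8824 and 0 of 7327 PPDO cells at that depth, which allows a share of cells with a UMI of up to 0.0340% and 0.0409% among cells thinned in this way. At full depth 0.124% and 0.0818% of PPDO cells had an ALOX12B UMI. The thinned shares of immune-like cells, given for comparison, ran from 0% to 0.477% in primary pancreas 1 and from 0% to 0.719% in primary pancreas 2, in which 1 of 139 cells had ELOVL4 and 1 had PLA2G4E. In primary pancreas 2 the ELOVL4 share of ductal-like cells (0.589%) was thus not above that of immune-like cells (0.719%).

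To place these cells, PPDO cells were ranked within each library by a differentiation score and split into 5 bins of equal size. The score was the mean scaled expression of 27 genes, mostly of the upper epidermis, such as KRT1, KRT10, IVL, SPINK5, KLK7 and DSG1. It also held KRT4, which is among the leading genes of the PPDO cluster led by SPP1 and CFD below. Neither the members nor genes of the wider lipid barrier list entered the score. All 4 expressed members were highest in the top bin of both cultures and over 2 times above the bottom bin. At least 2 times above it in both cultures were 3.26% of all genes with at least 10 CPM in the higher of these 2 bins. The 4 members reached that level in the top bin, which is where they were high. PLA2G4E went from 0.561 CPM in bin 1 to 45.8 CPM in bin 5 of PPDO 1, a ratio of 81.6, and from 0.502 to 59.9 CPM in PPDO 2, a ratio of 119. RDH12 went from 0.249 to 23.4 CPM (ratio 93.9) and from 0.371 to 32.1 CPM (86.4). The top bin held 90.1% and 91.6% of PLA2G4E UMIs and 94.1% and 95.1% of RDH12 UMIs. In the lowest 3 bins both genes were at no more than 1.06 CPM.

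CERS3 and ELOVL4 had a base level in all bins and a step only at the top. CERS3 was between 1.69 and 2.92 CPM in bins 1 to 4 of PPDO 1 and at 17.4 CPM in bin 5 (ratio of bin 5 to bin 1 9.99), and between 3.76 and 6.01 CPM and then 33.3 CPM in PPDO 2 (7.09). ELOVL4 was between 2.54 and 2.94 CPM and then 12.03 CPM in PPDO 1 (4.74), and between 2.38 and 3.08 CPM and then 28.3 CPM in PPDO 2 (9.18). CERS3 was higher in PPDO 2 than in PPDO 1 in each bin, and ELOVL4 in bins 1 and 5. ALOX12B had 4 UMIs at most in any bin and no order could be read. Median depth rose along the score from 27026 to 38108 UMIs in PPDO 1 and from 30647 to 38575 in PPDO 2. With bins formed only among cells of at least 20000 UMIs, a choice made after seeing the data, the ratios of PLA2G4E were 97.0 and 127, those of RDH12 87.8 and 84.6, those of CERS3 10.0 and 7.05 and those of ELOVL4 4.24 and 9.24. On a second score, of 12 genes of the basal layer such as KRT5, TP63 and ITGA6, each of the 4 was highest in the bottom bin. RDH12 was at 26.4 CPM in the bottom and 1.26 CPM in the top bin of PPDO 1, and at 35.6 and 1.03 CPM in PPDO 2. The higher bins did not always fall further, as with CERS3 at 3.87 CPM in bin 2 and 4.11 CPM in bin 5 of PPDO 1, and 6.94 and 7.14 CPM in PPDO 2.

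**Figure D2:**
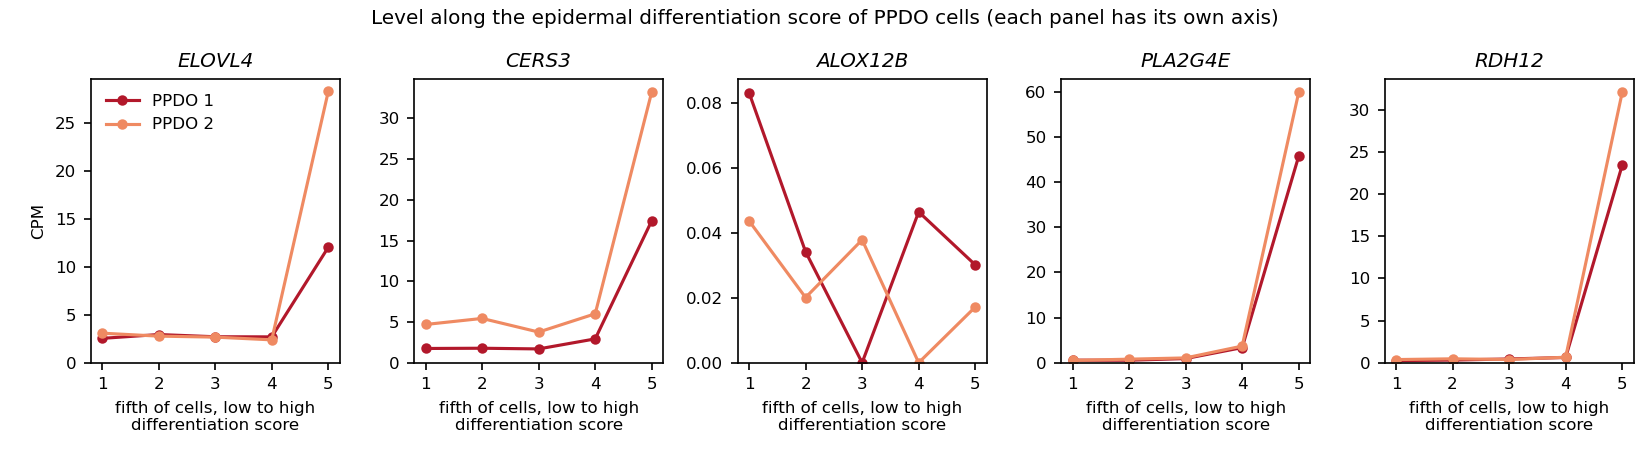
Level of each gene in CPM (linear axis, a scale of its own per gene) in 5 equal bins of PPDO cells ranked from low to high epidermal differentiation score, with 1 line per library. ELOVL4, CERS3, PLA2G4E and RDH12 step up in bin 5 of both libraries, and ALOX12B stays under 0.1 CPM with 4 UMIs at most in a bin.

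Clusters of PPDO cells are no independent support for this place, since SPINK5, KLK7 and DSG1, which mark the cluster below, are also in the score. The members and the lipid barrier list were not kept out of this clustering. Of 10 clusters, the one with SPINK5, KLK7, DSG1 and ABCA12 among its leading genes (886 and 843 cells) had the highest level of all 4 expressed members in both libraries. There PLA2G4E was at 81.0 and 92.7 CPM, RDH12 at 42.1 and 50.6 CPM, CERS3 at 26.6 and 48.5 CPM and ELOVL4 at 20.7 and 43.6 CPM. With 11.9% and 13.5% of all UMIs of the cultures, this cluster held 91.3% and 91.3% of RDH12 UMIs, 86.2% and 86.2% of PLA2G4E UMIs, 58.2% and 58.2% of CERS3 UMIs and 51.6% and 70.3% of ELOVL4 UMIs. Its limits depended on the clustering. Over 6 settings that differed in random seed or resolution, chosen after the data had been seen, it had 327 to 886 cells in PPDO 1 and 393 to 843 in PPDO 2, and the clustering reported is the one with the most. Over these settings its share of UMIs was 66.4% to 91.3% for RDH12, 48.5% to 86.2% for PLA2G4E, 35.0% to 58.2% for CERS3 and 36.2% to 51.6% for ELOVL4 in PPDO 1, while its share of all UMIs was 3.84% to 11.9%. In PPDO 2 the shares were 75.6% to 91.3%, 58.3% to 86.2%, 40.9% to 58.2% and 58.7% to 70.3%, of 5.79% to 13.5% of all UMIs. The smaller versions had higher levels, up to 145 and 146 CPM of PLA2G4E.

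The members parted in the clusters that came next. CERS3 was second highest in a cluster led by SPP1 and CFD (16.8 and 20.6 CPM, 265 and 168 cells), where RDH12 had only 0.618 and 0.181 CPM and ELOVL4 0.824 and 2.17 CPM. RDH12 was second highest in the small cluster led by S100A8 and SPRP (36.8 and 29.8 CPM, 34 and 86 cells), with counting intervals that reached those of the SPINK5 and KLK7 cluster in PPDO 1. In that small cluster PLA2G4E had 22.1 and 20.3 CPM, ELOVL4 4.90 and 22.4 CPM and CERS3 2.45 and 5.42 CPM. In PPDO 1 the values of ELOVL4 and CERS3 rested on 2 and 1 UMIs (intervals 0.594 to 17.7 and 0.0621 to 13.7 CPM), so their place in that library is open. For PLA2G4E the SPP1 cluster came next, at 9.79 and 15.7 CPM. All clusters outside the SPINK5 and KLK7 cluster, summed, had 1.75 and 2.33 CPM of PLA2G4E. The cluster led by ADM and TIMP3 (1166 and 224 cells) had the lowest ELOVL4 and CERS3 in both libraries, at 0.707 and 1.41 CPM and at 0.619 and 0.403 CPM. For ELOVL4 this rank lay within counting error. The SPP1 cluster had 0.824 CPM in PPDO 1, and the cluster led by TIMP3 and IGFBP6 had 1.57 CPM in PPDO 2. In the cycling cells led by CENPF and TOP2A the 4 expressed members lay between 0.664 and 4.50 CPM.

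**Figure D3:**
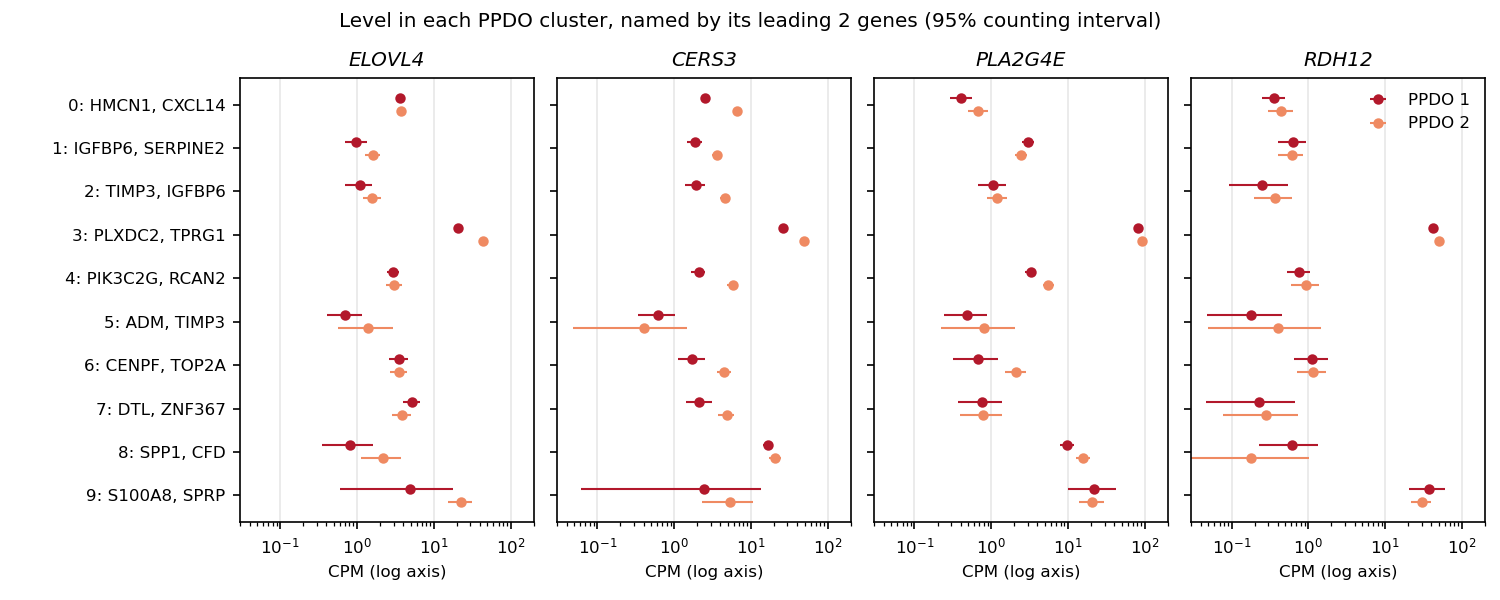
Level of 4 genes in CPM (log axis) in each of 10 PPDO clusters, written with the 2 leading genes of the cluster. Points are libraries and bars 95% counting intervals. Cluster 3, which also has SPINK5 and KLK7 among its leading genes, is the highest for each gene, and clusters 8 and 9 come next for some genes and not for others.

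Across the clusters of at least 50 cells (9 in PPDO 1, 10 in PPDO 2), the pattern of each member was compared with that of 5824 genes at 20 CPM or more. The points share a library, and their depth differs. The genes most like RDH12 by mean Pearson correlation were DMKN (0.98), SPRP, SLPI, KRTDAP and S100A8, all expressed in stratified or surface epithelia. Those most like ELOVL4 were DMKN (0.90), the suprabasal keratin KRT10 (0.90), the member RDH12 (0.89), PHYH and UCHL3. Those most like PLA2G4E were TMEM254 (0.95), SULT2B1 (0.94), which sulphates cholesterol, ELF5, S100A12 and VAT1. Those most like CERS3 were GAS7 (0.93), SDC1 (0.91), GRN, MARCKS and PITPNA. Of the genes named here DMKN stood in the lists of both RDH12 and ELOVL4, and no other gene was in more than 1 list. Between members the correlation, by the mean of both libraries, was lowest for CERS3 with ELOVL4, at 0.52 and 0.62 in PPDO 1 and 2, and then for CERS3 with RDH12, at 0.74 and 0.52. It was 0.57 and 0.80 for ELOVL4 with PLA2G4E, and 0.90 and 0.80 for CERS3 with PLA2G4E. For ELOVL4 with RDH12 it was 0.81 and 0.96, and for PLA2G4E with RDH12 0.88 and 0.82.

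Members were found together in single cells. Cells were thinned to 10000 UMIs, which left 8363 cells of PPDO 1 and 7161 of PPDO 2. Over the 6 pairs of the 4 expressed members the median odds ratio of detection in the same cell was 12.1 in PPDO 1 (range 4.99 to 38.8) and 12.3 in PPDO 2 (5.06 to 31.6). It was highest for PLA2G4E with RDH12, which shared 119 and 162 cells. Of cells with RDH12, 57.2% and 59.1% also had PLA2G4E, against 3.34% and 4.37% of cells without RDH12. It was lowest for CERS3 with ELOVL4, at 4.99 and 5.06, with 39 and 95 shared cells. Every pair thus had an odds ratio above 1 in both libraries. No odds ratios of other gene pairs are given beside these, so the values describe the members and do not set them apart.

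The odds ratios were lower, but still above 1, among cells of the same cluster, where the median was 3.69 (2.03 to 6.19) in PPDO 1 and 3.60 (2.10 to 4.53) in PPDO 2. No member was found in 7519 and 6074 thinned cells, 1 member in 621 and 750, 2 in 139 and 185, 3 in 63 and 103, and all 4 in 21 and 49 cells. Of the cells with 3 or 4 members, 83 of 84 (98.8%) in PPDO 1 and 148 of 152 (97.4%) in PPDO 2 belonged to the SPINK5 and KLK7 cluster. The members took part in this clustering, so these shares are no independent support. They are for the largest version of the cluster and were not counted in the smaller ones. Even in the largest version 49.3% and 37.1% of thinned cells had none of the members. ALOX12B was in 5 and 2 thinned cells, of which 1 in PPDO 2 also had ELOVL4.

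**Figure D4:**
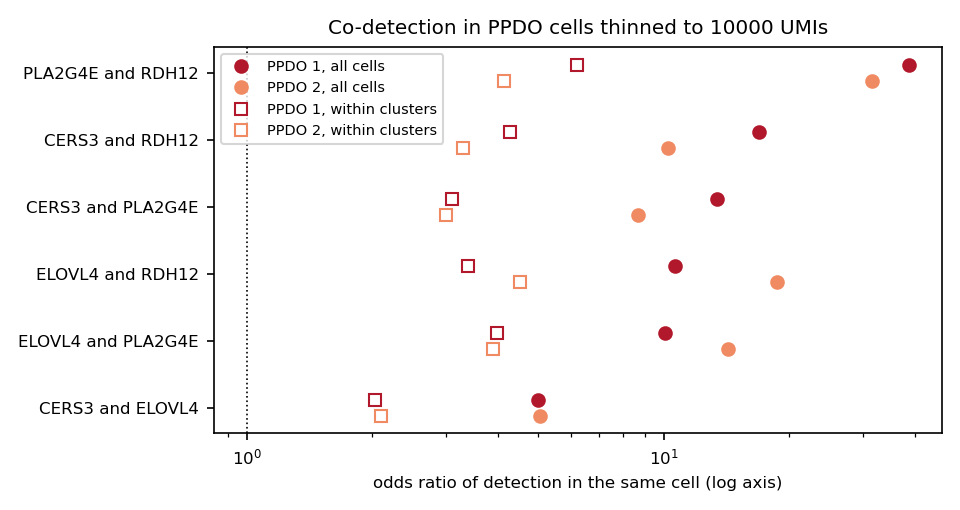
Odds ratio of finding both genes of a pair in the same PPDO cell (log axis), over cells thinned to 10000 UMIs, for 6 pairs and 2 libraries. Filled circles are over all cells and open squares within clusters, and the dotted line marks an odds ratio of 1. All points lie to the right of the line, PLA2G4E with RDH12 farthest over all cells and CERS3 with ELOVL4 nearest.

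To set the members among their pathway, 118 matched genes of a lipid barrier list, the 5 members not counted, were compared between PPDO and ductal-like sums with edgeR (quasi-likelihood test, Benjamini-Hochberg over all genes tested). Of these, 111 could be tested. The list was chosen with earlier results of these data known, so its counts beside those of all genes are a description and do not test the pathway. The test has 2 libraries a side, so its p-values measure the spread between these samples alone. In PPDO 45 of 111 genes rose (40.5%) and 22 fell (19.8%), where of all 23539 genes tested 22.9% rose and 20.9% fell (43.8% in either direction). The median log2 fold change of PPDO over ductal-like was 0.50 for the list and 0.01 for all genes. These fold changes are scaled by TMM factors, which compare libraries over their less changed genes, and do not follow from the CPM beside them, which use library totals. With library totals in place of TMM, an alternative added after seeing the data, the median was 0.08 for the list and -0.45 for all genes. Then 38 list genes rose and 27 fell, where 13.8% of all genes rose and 29.5% fell, so that small fold changes depend on the scaling. Without PPDO 2 the number of list genes called was 39 in place of 67, and against all primary cells it was 36. The cells summed on each side also differ in their keratin and ductal markers as given above, and the part of this in the list was not tested.

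Of 24 genes of elongation and fatty acid supply, the group of ELOVL4, 13 rose and 4 fell. FABP5, a fatty acid carrier of skin, had 4129 and 4911 CPM in PPDO against 11.5 and 1.70 CPM in ductal-like cells (log2 fold change 9.77 ± 1.28 SE, adjusted p = 0.00527 with edgeR). Its log2 fold change was 11.92 without primary pancreas 1, 8.93 without primary pancreas 2 and 4.07 against all primary cells. The elongases ELOVL1 (1.80), ELOVL5 (1.97) and ELOVL6 (2.50) rose, but ELOVL6 had -0.14 against all primary cells. Of the elongases chosen after their values were seen, ELOVL3 fell by 3.07 (adjusted p = 0.0217 with edgeR, up to 0.142 over the alternatives, 8 of 12 of which called it), from 40 UMIs in all, and ELOVL2 had 0.14 (adjusted p = 0.800), or -0.29 with library totals. ACSL5, which activates fatty acids, rose by 3.17, although not called against all primary cells (adjusted p = 0.0823 with edgeR). SLC27A1, a fatty acid transporter, fell by 3.23. ACACA, which makes malonyl-CoA, fell by 0.93 and was called neither without PPDO 1 nor without PPDO 2 (adjusted p = 0.0785 and 0.0568 with edgeR).

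Of 18 ceramide synthesis genes, the group of CERS3, 5 rose and 6 fell. CYP4F22, which hydroxylates the end of ultra-long fatty acids, had 15.2 and 19.96 CPM against 0.185 and 0.315 CPM (6.65 ± 0.35, adjusted p = 0.000679 with edgeR), and DEGS2, which forms phytoceramides, rose by 2.42. CERS1, a ceramide synthase chosen after its values were seen, had 4.83 and 4.79 CPM in PPDO against 2.82 and 3.35 CPM and rose by 1.10 on the TMM scale (adjusted p = 0.0192 with edgeR, called in 7 of 12 alternatives), but with library totals it had 0.64 without a call (adjusted p = 0.141), the highest p of these alternatives. CERS2 (-0.52), CERS4 (-0.73) and CERS6 (-1.65) were lower in PPDO but each lost its call without PPDO 1 (adjusted p = 0.219, 0.145 and 0.0541 with edgeR) and without PPDO 2 (0.178, 0.180 and 0.120). CERS4 was also not called without primary pancreas 1 (0.0513) and CERS6 without primary pancreas 2 (0.0648). CERS5 had 0.26 (adjusted p = 0.281), or -0.21 with library totals. SPTSSB, a subunit of serine palmitoyltransferase, fell by 2.94 and lost its call without primary pancreas 2 (adjusted p = 0.0648 with edgeR).

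Of 16 genes of sphingolipid head groups, transport and turnover, 5 rose and 4 fell. ABCA12 had 40.3 and 48.5 CPM against 0.185 and 0.394 CPM (7.80 ± 0.35, adjusted p = 0.000518 with edgeR), and CERT1, which carries ceramide to the Golgi, rose by 1.30. GBA2 (-1.39) and SMPD1 (-1.23), which break down glucosylceramide and sphingomyelin, fell, GBA2 without a call when PPDO 2 was left out (adjusted p = 0.0574 with edgeR) and SMPD1 when PPDO 1 was (0.0959).

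Of 9 lipoxygenase and linoleate oxidation genes, the group of ALOX12B, 3 rose and 2 fell on the TMM scale, whereas 1 rose and 3 fell with library totals. ALOXE3, the partner of ALOX12B, had 0.123 and 0.156 CPM in PPDO and 0.671 and 0.355 CPM in ductal-like cells (log2 fold change -1.49, adjusted p = 0.0748 with edgeR). It passed the test without primary pancreas 2 (-1.95, adjusted p = 0.0303) and with library totals (-1.91, adjusted p = 0.0263), and its sign turned without extended features (1.19). Neither gene of this oxidation step was thus found at more than 0.2 CPM in PPDO. ALOX15 rose by 1.41, without a call when PPDO 1 was left out (adjusted p = 0.0847) or with library totals (0.0778), and GPX4, which reduces lipid peroxides, rose by 1.42. The epoxide hydrolases EPHX1 (-2.18) and EPHX2 (-1.78) fell, EPHX2 without a call when PPDO 2 was left out (adjusted p = 0.0502).

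Of 11 phospholipases A2, the group of PLA2G4E, 6 rose and 3 fell (5 and 4 with library totals). Its cytosolic relatives were PLA2G4A (38.0 and 39.1 CPM against 2.64 and 3.90 CPM, 4.04 ± 0.20, adjusted p = 0.000604 with edgeR), PLA2G4B (0.98), PLA2G4D (3.92) and PLA2G4F (7.02), and all 4 passed the test as higher in PPDO. Against all primary cells PLA2G4A was not called (1.64, adjusted p = 0.168). PLA2G4D and PLA2G4F rested on 5 and 2 ductal-like UMIs, and PLA2G4B was not called without PPDO 1 or without PPDO 2 (adjusted p = 0.0977 and 0.112) or with library totals (0.124). Along the differentiation score PLA2G4D (ratios of the top to the bottom bin 13.1 and 23.1) and PLA2G4F (7.45 and 10.3) had the direction of PLA2G4E, both at levels under 10 CPM, while PLA2G4A (0.638 and 0.678) and PLA2G4B (1.02 and 1.14) did not pass 2 times. Of the 4 phospholipases with at least 10 CPM in the higher of the top and bottom bins, 0 were at least 2 times higher in the top bin. Their median log2 ratio was -0.19. PLA2G10 rose by 2.33 and was not called without PPDO 2 or without either primary library (adjusted p = 0.0715 to 0.148). PLA2G7 (-4.05) and PLAAT3 (-1.78), a plasma lipase and an acyltransferase, fell.

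Of 21 retinoid genes, the group of RDH12, 7 rose and 2 fell. CRABP2, which carries retinoic acid, had 164 and 204 CPM against 0.0463 and 0.0394 CPM, from 3 ductal-like UMIs (12.44 ± 0.33, adjusted p = 0.000319 with edgeR). With so few UMIs this SE understates the error, and the log2 fold change of CRABP2 ran from 8.28 to 13.96 over the alternatives. The receptor RARG rose by 3.57. ALDH1A2, which makes retinoic acid, fell by 6.07 and DHRS3, which returns retinaldehyde to retinol, by 2.20. The relatives RDH10 (0.63), RDH11 (0.24), RDH13 (-0.49) and RDH14 (0.03) were not called, RDH11 and RDH14 having -0.22 and -0.44 with library totals, although RDH10 (1.26, adjusted p = 0.0116) and RDH13 (-1.05, adjusted p = 0.0228) were without primary pancreas 1. The sign of RDH13 turned without primary pancreas 2 (0.29) and against all primary cells (0.35). Of the relatives chosen after their values were seen, RDH16 rose by 2.03 (adjusted p = 0.0206 with edgeR, up to 0.1502 over the alternatives, 9 of 13 of which called it) and RDH5 had 0.18 (adjusted p = 0.774), or -0.24 with library totals. Of 12 cholesterol genes 6 rose and 1 fell (5 and 3 with library totals). SULT2B1 had 21.0 and 31.9 CPM against 0.278 and 0.276 CPM (7.02 ± 0.38, adjusted p = 0.000742 with edgeR). NPC1, which moves cholesterol out of lysosomes, fell by 1.20, without a call when either PPDO library was left out (adjusted p = 0.139 and 0.141).

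**Figure D5:**
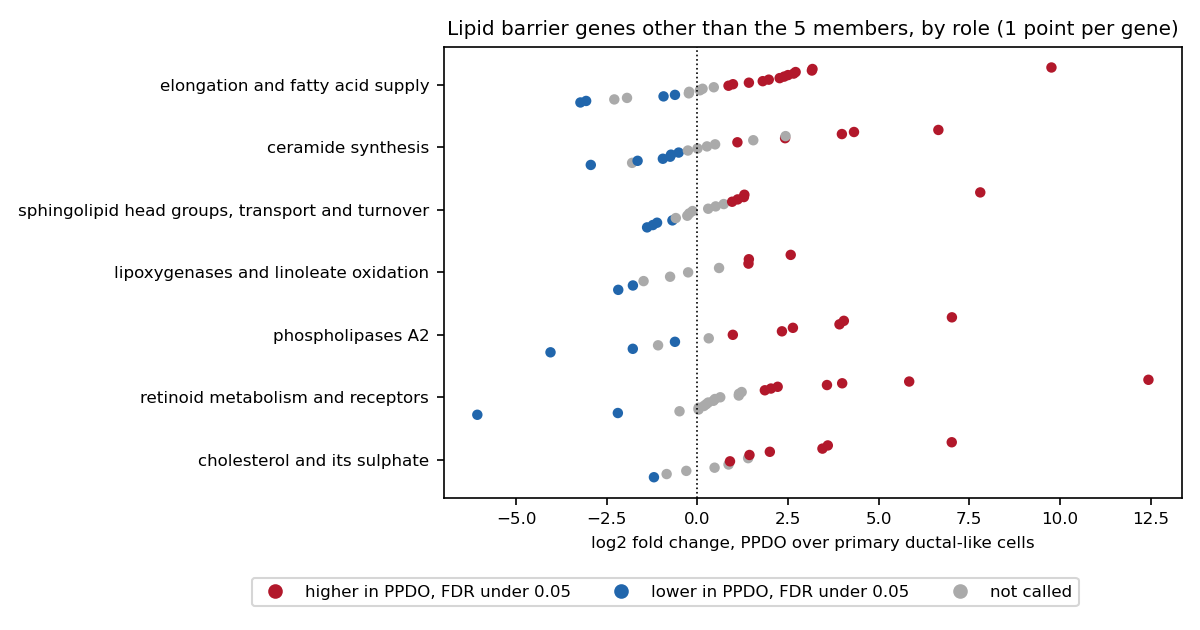
Log2 fold change of PPDO over ductal-like cells for 111 genes of the lipid barrier list other than the 5 members, with 1 point per gene, arranged by role and spread within a role by rank. Red points rose and blue points fell at an adjusted p under 0.05 (edgeR), and grey points were not called. The 7 roles hold between 3 and 13 genes that rose and between 1 and 6 that fell on this TMM scale, against 1 to 11 and 2 to 6 with library totals.

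Inside PPDO the list could be read along the differentiation score without the primary cells. Considered were 70 list genes with at least 10 CPM in the higher of the top and bottom bins in both libraries. Of these, 10 were at least 2 times higher in the top bin in both libraries and 0 were lower by as much. Of 8469 genes of that level 3.26% were higher and 2.2% lower. Since the list was chosen with earlier results of these data known, these counts are a description. The median log2 ratio was 0.23 for the list and -0.11 for all genes. The 10 genes were CRABP2 (ratios 33.3 and 71.6), CYP4F22 (11.8 and 14.7), SULT2B1 (6.68 and 10.4), ABCA12 (4.40 and 5.67), FABP5 (4.27 and 5.29), HMGCS1 (3.45 and 3.47), ABHD5 (3.17 and 3.52), DEGS2 (2.56 and 2.93), SPTLC3 (2.62 and 2.42) and RDH11 (2.33 and 2.34). They were listed after their values had been seen. Those of PLA2G4E and RDH12 were larger than all of these ratios and those of CERS3 and ELOVL4 were within their range. Among ceramide synthases CERS4, which did not reach 10 CPM in these bins of both libraries and so lay outside the 70, was lower at the top (0.415 and 0.325). CERS2 (1.23 and 1.17) and CERS5 (0.972 and 1.02) were level. Cells at the top of the score were deeper, as given above.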

How the data were processed

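Porcine single-cell libraries of PPDO (n = 2) and primary pancreas (n = 2) were made by the authors with the Chromium 3' kit, aligned to an in-house pig annotation and counted with Cell Ranger. The submitters' processing notes list the builds GRCh38 and Sscrofa11.1 with no role. Deposited were unnormalised UMI counts, 1 value for a feature in a barcode, and the deposited barcode and feature tables hold names only. The authors corrected free RNA with SoupX later, which these counts lack. Groups and replicate numbers came from the sample titles. The members and gene lists were chosen with earlier results of these data known.

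Features of a gene (56060 features, 25770 of them extensions) were summed. PPDO cells had at most 3% mitochondrial UMIs and 1000 to 9000 features. Primary cells had under 8%, under 9000 features and over 400 (primary pancreas 1) or 800 features and 3000 UMIs (primary pancreas 2), and doublet scores (Scrublet in Scanpy) up to 0.25 and 0.15. In PPDO 1.29% and 1.23% of cells had a doublet score over 0.25 and were kept. Scanpy 1.11.5 and leidenalg 0.10.2 (2000 variable genes, 20 components, 15 neighbours, resolution 0.5) gave clusters. Primary clusters were called X-like from at least 3 markers in 10% of cells and 2 times above the other clusters. The clustering code was made reproducible after member values in an earlier solution had been seen, and the seed was not chosen by them.

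CPM intervals are exact Poisson, shares Clopper-Pearson, both at 95%, for counting error only. Where no cell had a UMI, the limit given is that of 3 counts. Sums were compared in edgeR 4.0.16 (TMM, filterByExpr, FDR 0.05, R 4.3.3), tested beforehand on simulated data. SE is the fold change over the root of F, and can be smaller than counting error where a side has few UMIs. Members were left out of the list. Besides the members, a set list of relatives (CERS2, CERS4, CERS5, CERS6, ELOVL1, ELOVL5, ELOVL6, ALOXE3, PLA2G4A, PLA2G4B, PLA2G4D, PLA2G4F, RDH10, RDH11, RDH13 and RDH14, with ELOVL7 and ALOX12 not matched) was named whatever the result, with up to 2 genes per role and direction with the largest change at 10 CPM or more, of which 1 is not reported here. For likeness the 5 highest mean correlations were named. Alternatives were DESeq2 1.42.0, no filter, library totals without TMM, a replicate block, all primary cells, no extensions, thinning, other cell filters and leaving out each library. Same-numbered libraries did not deviate together (r = -0.00311 over 9407 genes) and come from different animals, so the numbers pair nothing.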

Additional observations from a re-analysis of the deposited data

How the results depend on the processing

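The list genes called (67) were 36 against all primary cells and 39 to 75 with each library left out, and all genes called (10302) were 6350 and 4550 to 10716. A replicate block gave 61 list genes and 8143 genes, DESeq2 74 and 11221, and library totals in place of TMM 65 and 10207. The block took the call from CERS1, CERS2, CERS4, CERS6, PLA2G10 and RDH16 among the genes named. Fold changes turned sign in ALOXE3 without extensions (1.19), CERS2 (0.11) and ELOVL6 (-0.14) against all primary cells, RDH13 against all primary cells (0.35) and without primary pancreas 2 (0.29, range with a library left out -1.05 to 0.29), CERS5 (-0.21) and RDH11 (-0.22) with library totals, and RDH14 with library totals (-0.44), thinned (-0.051) and with a library left out (-0.14 without primary pancreas 1, -0.11 without PPDO 2, up to 0.16). Of the refitted fold changes of the genes named by rule, 471 kept direction and side of the threshold, 46 lost the call, 4 gained one and 11 turned. The mean of the libraries' median odds ratios, 12.2, was 10.3 thinned to 20000 UMIs, 7.32 stratified by depth, 3.65 within clusters, 12.9 without extensions and 12.1 to 12.3 with each library alone. The cause of these changes was not tested. Without extensions ALOX12B was at 0.00196 CPM in PPDO and 0 in ductal-like cells. With primary doublets kept CERS3 was at 0.137 CPM in ductal-like cells. With members and list left out of the clustering, a choice made after seeing the data, the SPINK5 and KLK7 cluster had 341 and 446 cells and held 37.9% of CERS3, 54.1% of PLA2G4E and 72.2% of RDH12 UMIs on average. Of ELOVL4 UMIs it held 36.4% in PPDO 1 and 60.3% in PPDO 2. Depth limits ALOX12B, in PPDO and in ductal-like cells, and classes of few cells.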
